A study of Homo sapiens with 4 samples.

Results

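Box H/ACA small nucleolar RNAs (snoRNAs, gene symbols beginning with SNORA) were followed after inhibition of the microRNA miR-191. Every array row with exactly 1 gene symbol beginning with SNORA and a digit was taken, and the brightest row stood for a gene that had more than 1. The 64 such rows gave 61 SNORA genes, of 18417 genes with 1 symbol. The 26 further rows that pair a SNORA symbol with other symbols were not used. The cells were HepG2, an established hepatocellular carcinoma line, and all cultures were transfected with a lipid reagent. The anti-miR-191 group received an antisense inhibitor of miR-191, and the control group received a negative control anti-miR. Each group had 2 arrays, 1 from each of 2 independent experiments, and no untransfected culture was analysed here. The sources used here give neither dose nor time after transfection.

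H/ACA snoRNAs fold into a pair of hairpins that guide the conversion of uridine to pseudouridine in ribosomal RNA and spliceosomal RNA. Each works in a particle with the pseudouridine synthase dyskerin (DKC1) and the proteins NHP2, NOP10 and GAR1. In human cells most lie in introns of other genes, their hosts, and are cut out of the intron after splicing and debranching. The guide and the protein product of a host therefore start from the same primary transcript. A probe set for an intronic snoRNA can also bind the host's unspliced RNA, and mature snoRNA and host intron cannot be told apart here.

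The inhibited microRNA is shown because it defines the treatment. Its mature 5p strand lies at chr3:49020672-49020694 on the minus strand (GRCh38.p14, RefSeq), with the seed, bases 2 to 8, in capitals.

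hsa-miR-191-5p: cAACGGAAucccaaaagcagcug

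Levels are log2 RMA intensities. The 4 arrays had medians from 4.37 to 4.43, and their middle quartiles spanned 3.18 and 3.24 in controls, 3.38 and 3.43 after anti-miR-191. The 8 liver markers fixed for the purpose (ALB, AFP, APOA1, APOB, TTR, FGB, TF and SERPINA1) read between 5.21 and 11.6 in controls, and of them TTR fell (-1.04 ± 0.14). Those of 8 markers of other cell types read between 2.62 (PTPRC, leukocytes) and 5.39 (KRT14, keratinocytes). A change is the log2 level after anti-miR-191 minus that in the control, given per experiment or as the mean of both experiments ± SE. "Fell" and "rose" are used for a Benjamini-Hochberg adjusted p under 0.05 in a limma fit over 14147 genes with the experiment as a block. A gene was tested when its row lay above 3.41, the level below which the dimmest 33.3% of rows were left out.

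All 61 SNORA genes matched the RefSeq gene table of GRCh38.p14, with annotated lengths between 123 and 236 bases (median 134), on 20 chromosomes. Of the 61, 53 passed the limit on dim rows and 8 did not (SNORA16B, SNORA19, SNORA36C, SNORA58, SNORA69, SNORA70B, SNORA70F and SNORA70G). As a guide to background, the 20 genes of the neuronal SNORD115 cluster on the array read between 1.96 and 5.36 in controls, with a median of 2.56. SNORA35, which lies in the serotonin receptor gene HTR2C, read 3.66 and 3.45 after anti-miR-191 and 3.70 and 3.91 in controls. In controls 40 SNORA genes read above the highest SNORD115 gene. The other 13 tested SNORA genes lay within the SNORD115 range. Of these, SNORA30, SNORA70C and SNORA70E were above the limit on dim rows in controls but not after anti-miR-191, and none of them passed the test.

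After anti-miR-191 the H/ACA snoRNAs as a group read lower. Of the 53 tested, 12 fell and 0 rose, while 3.77% of all genes tested fell and 10.1% rose. At an unadjusted p under 0.05 in the same limma fit, 32 were lower and 0 higher, beside 8.98% and 19.1% of all genes. In both experiments 48 of the 53 were lower, beside 33.0% of all genes tested. Over all 61 genes, dim ones included, 53 were lower in both experiments, beside 36.2% of the 18417 genes. The median change of the 53 was -0.54 in experiment 1 and -0.34 in experiment 2, and -0.46 for the mean of both. Over all genes tested these medians were 0.02, 0.01 and 0.01. In 26 of the 53 both anti-miR-191 arrays lay below both controls, beside 23.8% of all genes, and in 0 above. SNORA30, SNORA70C and SNORA70E, which passed the limit on dim rows only through their controls, are counted in the 48 and the 26. SNORA30 and SNORA70C are also counted in the 32. With no limit on dim rows, 38 of the 61 were lower and 0 higher at an unadjusted p under 0.05 in limma. Of the 53, 6 were at least 1.5-fold lower in both experiments, where 2.22% of all genes were. In culture RNA, fewer cells with a transcript and less of it per cell cannot be told apart.

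**Figure D1:**
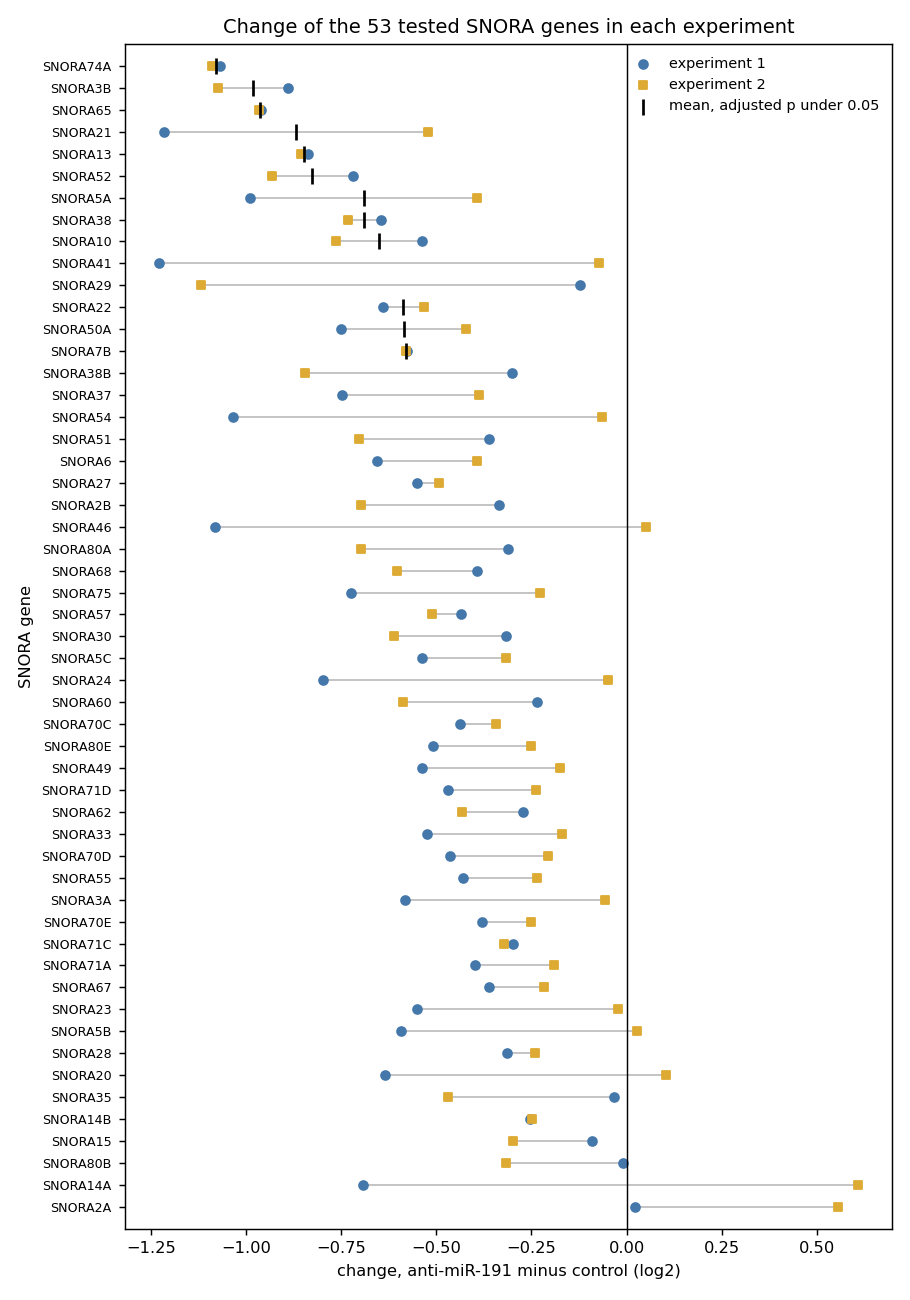
Change of each of the 53 tested SNORA genes (rows) in log2 units, anti-miR-191 minus control, in experiment 1 (circles) and experiment 2 (squares), with a bar at the mean of the 12 genes that fell. Of the 53 genes, 48 lie left of 0 in both experiments and SNORA2A alone lies right of 0 in both.

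The fallen genes are described by host. A host is the longest annotated gene, other than a small RNA, whose RefSeq span holds the snoRNA. The table gives no strand, so a gene on the opposite strand can be named, and 9 of the 61 snoRNAs lie in more than 1 gene. Of 11 tested snoRNAs in ribosomal protein genes 5 fell, of 34 in other protein-coding genes 5 fell, and of 8 in non-coding genes 2 fell. These shares of 45.5%, 14.7% and 25% stand beside 3.77% of all genes tested. SNORA74A and SNORA13, which fell, are counted under protein-coding genes, though the non-coding SNHG4 and EPB41L4A-AS1 also hold them. SNORA67, which did not pass, is counted under non-coding genes, though EIF4A1 also holds it. The class shares therefore depend on the rule of the longest span. Median changes in these classes were -0.52, -0.45 and -0.38. The classes also differed in level, with control medians of 8.03, 5.87 and 9.92. Of all genes tested, 9.53% fell at control levels of 7 to 9, 1.53% at 5 to 7 and 24.5% at 9 or more. The 25% of the non-coding class lay near the 24.5% at 9 or more, but control means in this class ranged from 6.22 to 10.87. Its 2 fallen genes, SNORA22 and SNORA7B, had control means of 10.27 and 6.22. The class was therefore not matched to all genes by level.

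Among snoRNAs of ribosomal protein genes, SNORA65, in RPL12 of the large subunit, read 7.65 and 8.99 after anti-miR-191 and 8.61 and 9.96 in controls of experiments 1 and 2. The experiments lay more than 1 log2 unit apart, so the groups overlapped, but the change was nearly equal in both (-0.96 ± 0.14, limma's adjusted p = 0.00697). SNORA3B, in RPL27A, read 5.30 and 5.75 against 6.19 and 6.83. Both anti-miR-191 arrays lay below both controls, and the fall was 1.97-fold (-0.98 ± 0.15). SNORA52, in the acidic stalk protein gene RPLP2, read 7.60 and 6.80 against 8.32 and 7.73. Here the highest anti-miR-191 value lay just under the lowest control value, with a change of -0.83 ± 0.15. SNORA10, in RPS2 of the small subunit, read 8.38 and 8.85 against 8.92 and 9.61, a change of -0.65 ± 0.15. It had a pair of rows with identical values on all 4 arrays. SNORA21, in RPL23, was the brightest SNORA gene in controls and read 9.12 and 11.01 against 10.34 and 11.53. Its change was larger in experiment 1 (-1.22) than in experiment 2 (-0.52), and its groups overlapped. Single arrays moved several of these values when no block was fitted. SNORA21 had changes of 0.07 without anti-miR-191 replicate 1, -1.81 without anti-miR-191 replicate 2, -1.46 without control replicate 1 and -0.27 without control replicate 2. In the same order SNORA65 had -0.29, -1.63, -1.63 and -0.29, SNORA52 had -1.23, -0.425, -0.53 and -1.12, and SNORA10 had -0.42, -0.88, -0.997 and -0.31.

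Other members of this class did not pass. SNORA3A, the second snoRNA of RPL27A, read 8.93 and 9.10 against 9.52 and 9.15, with changes of -0.58 and -0.06. SNORA27 in RPL21 had a change of -0.52 and SNORA33 in RPS12 of -0.35. SNORA6 and SNORA62, both in RPSA, had changes of -0.52 and -0.35. All 11 tested members in ribosomal protein genes were lower in both experiments.

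Outside ribosomal protein genes, SNORA74A (U19) had the largest fall of all SNORA genes tested. It read 5.97 and 6.11 after anti-miR-191 and 7.04 and 7.20 in controls, 2.11-fold lower (-1.08 ± 0.14, limma's adjusted p = 0.00496), with both anti-miR-191 arrays below both controls. Its span lies in MATR3, which encodes an RNA-binding nuclear matrix protein, and also in the snoRNA host gene SNHG4. SNORA13 read 4.64 and 4.68 against 5.48 and 5.54, with changes of -0.84 and -0.86. Both of its anti-miR-191 values lay within the SNORD115 range, and its controls lay little above the highest SNORD115 level of 5.36. SNORA13 lies in the span of EPB41L4A and of its antisense RNA EPB41L4A-AS1. SNORA13 and SNORA74A were the only SNORA genes also called without the block (limma's adjusted p = 0.0367 and 0.0279).

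Of the other fallen genes, SNORA38, in PRRC2A, read 6.60 and 7.60 against 7.25 and 8.33. SNORA5A, in TBRG4, a gene of mitochondrial RNA regulation, read 5.44 and 5.54 against 6.43 and 5.93. SNORA50A, in CNOT1, the scaffold of the CCR4-NOT deadenylase, read 8.49 and 8.36 against 9.24 and 8.78. In SNORA5A and SNORA50A both anti-miR-191 arrays lay below both controls, with changes of -0.69 ± 0.18 and -0.59 ± 0.16, whereas the groups of SNORA38 overlapped (-0.69 ± 0.14). SNORA22, in the span of LINC03006 and of the chaperonin pseudogene CCT6P1, read 9.63 and 9.74 against 10.28 and 10.27. SNORA7B, in the pseudogene RPL32P3, read 5.03 and 6.26 against 5.61 and 6.84. Both had changes near the smallest that were called (-0.59 and -0.58), and the groups of SNORA7B overlapped. With no block, SNORA7B had changes of 0.03 and -1.19 without anti-miR-191 replicates 1 and 2, and of -1.19 and 0.03 without control replicates 1 and 2. In the same order SNORA38 had -0.19, -1.19, -1.23 and -0.14. Without control replicate 1 the change was -0.44 for SNORA5A and -0.35 for SNORA50A.

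**Figure D2:**
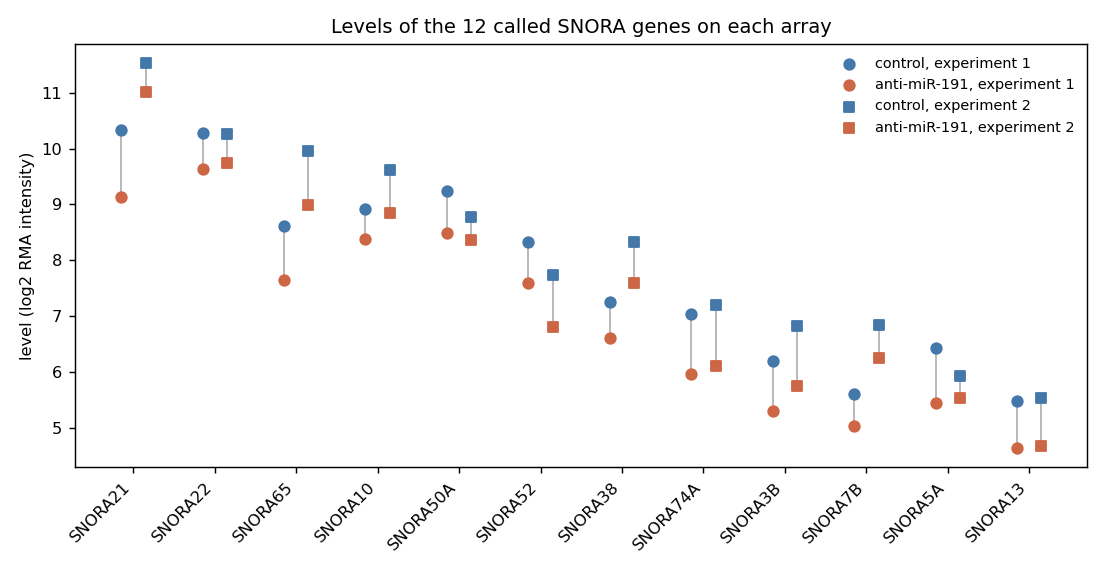
Levels in log2 RMA intensity (vertical axis) of the 12 SNORA genes that fell, on the control (blue) and anti-miR-191 (orange) arrays of experiment 1 (circles) and experiment 2 (squares), with a line joining the arrays of 1 experiment. Every line runs down from control to anti-miR-191, while experiments can differ by more than the treatment, as in SNORA65 and SNORA7B.

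The count of called genes rests on the block. Without it limma called 2 SNORA genes lower, beside 0.714% of all genes lower and 3.20% higher, and 13 were lower at an unadjusted p under 0.05. Leaving out any single array ended both calls, with 7 to 19 SNORA genes lower at an unadjusted p under 0.05. Of the 53, 42 had changes below 0 without anti-miR-191 replicate 1 and 42 without control replicate 2, beside 52 with all arrays. Under quantile normalization SNORA5A, SNORA22 and SNORA50A lost their call in the fit with the block (adjusted p up to 0.0598), and SNORA5A and SNORA50A also under median centring and with a stricter limit on dim rows (4.41).

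The experiments differed in snoRNA level. The control of experiment 2 minus that of experiment 1 had an SD of 0.749 over the 53 SNORA genes and 0.343 over all genes tested. In 10 SNORA genes the second control was higher by at least 1 log2 unit, and in 3 it was lower by as much. SNORA46, in CNOT1, read 5.57 and 7.33 in controls and 4.49 and 7.38 after anti-miR-191. SNORA41, in the elongation factor gene EEF1B2, read 5.64 and 4.22 in controls and 4.41 and 4.14 after anti-miR-191. Both were lower by over 1 in experiment 1 and near their control in experiment 2.

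The other members with the largest gaps between experiments were SNORA14A, SNORA29 and SNORA54. SNORA14A, in the P450 reductase gene POR, had changes of -0.69 and 0.61. SNORA29, in the chaperonin gene TCP1, had changes of -0.12 and -1.12, and SNORA54, in NAP1L4, of -1.03 and -0.06. Across the 53 genes the changes of both experiments had Pearson r = 0.0536 and Spearman rho = -0.0517. Genes on 1 array share that array and its scaling, so these values are descriptions.

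**Figure D3:**
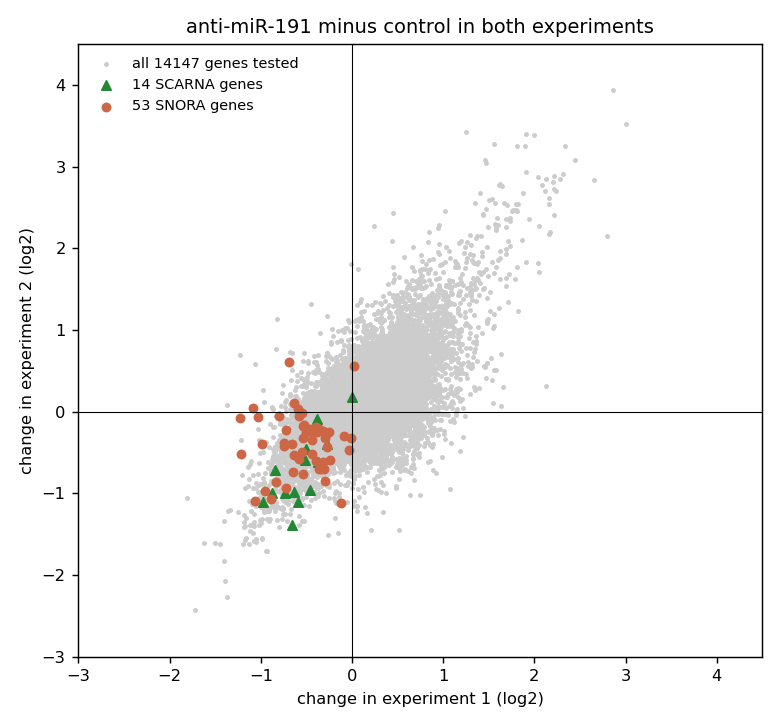
Change (log2, anti-miR-191 minus control) in experiment 1 (horizontal) and experiment 2 (vertical) of all 14147 genes tested (grey), the 53 SNORA genes (orange) and the 14 SCARNA genes (green). The SNORA genes lie mostly in the lower left, with 48 of 53 below 0 on both axes.

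Several of the brightest SNORA genes did not pass. SNORA71C, in the non-coding host SNHG17, read 10.68 and 10.44 after anti-miR-191 and 10.98 and 10.76 in controls. SNORA23, in IPO7, a nuclear import receptor that carries ribosomal proteins, read 10.10 and 10.40 against 10.65 and 10.43. SNORA67, in the span of SENP3-EIF4A1 and of EIF4A1, read 9.23 and 10.40 against 9.60 and 10.62. Their changes lay between -0.31 and -0.29 and did not pass (limma's adjusted p between 0.210 and 0.338). SNORA57, in the span of LBHD1 and CSKMT, had a change of -0.47 ± 0.14 and an adjusted p of 0.0709 in limma. SNORA24, in SNHG8, had changes of -0.80 and -0.05.

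Members of a family with a shared number may have similar sequences and share probes. This was not checked here, so they are not taken as independent. The families of at least 3 members are given. SNORA71A, SNORA71C and SNORA71D, all in SNHG17, had changes of -0.29, -0.31 and -0.35. In TBRG4, SNORA5A fell while SNORA5B (-0.28) and SNORA5C (-0.43) did not pass. SNORA80A in URB1, SNORA80B in ODC1 and SNORA80E in KHDC4 lie in unrelated genes and had changes of -0.50, -0.16 and -0.38. Of 6 SNORA70 genes, SNORA70C (-0.39), SNORA70D (-0.34) and SNORA70E (-0.32) were tested and did not pass, and their control levels of at most 4.49 lay within the SNORD115 range. Without these families 11 of 41 SNORA genes fell (26.8%), beside 3.77% of all genes tested.

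Hosts of SNORA genes more often read higher. Of 52 hosts, 42 were measured with 1 symbol and 41 were tested. Of these 9 rose and 1 fell, beside 10.1% and 3.77% of all genes tested, and without the block limma called 3 higher (AAK1, ODC1 and URB1). The median host change was 0.36, with 0.42 in experiment 1 and 0.24 in experiment 2. In 42 pairs of tested snoRNA and tested host, the snoRNA's change lay below the host's in 41, and in 34 in both experiments. The exception was SNORA3A with RPL27A. In 29 pairs the host was above 0 and the snoRNA below 0. The difference between a snoRNA and its host was not tested.

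Risen hosts include SNHG17, a non-coding snoRNA host, which rose 2.09-fold (changes of 0.70 and 1.43) while its 3 snoRNAs did not pass. KANSL2, a subunit of a histone acetyltransferase complex, rose 2.56-fold (1.35 ± 0.23). Of its snoRNAs, SNORA2A read 3.42 and 5.52 against 3.40 and 4.97, and SNORA2B had a change of -0.52 ± 0.16, both from control levels within the SNORD115 range. ODC1, the first enzyme of polyamine synthesis, rose 2.21-fold, and SNORA80B within it had changes of -0.01 and -0.32. URB1, a ribosome assembly factor, rose 1.86-fold, IPO7 rose 1.84-fold and the initiation factor gene EIF5 rose 1.64-fold. AAK1, PHLPP2 and RAB30 also rose, by 1.09, 0.73 and 0.65 on the log2 scale, RAB30 from a control level of 3.29 under the limit for dim rows. RAB30 was tested only through its level after anti-miR-191, so its place in the count of risen hosts is set in part by the limit. In the 11 pairs with a risen host, 0 snoRNAs fell, and all but SNORA2A had mean changes below 0.

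Hosts of the fallen snoRNAs mostly did not pass. MATR3 had a change of 0.02 ± 0.15, RPL12 of 0.03 ± 0.15 and LINC03006 of -0.01 ± 0.15. CNOT1 had a mean change of -0.02 ± 0.24, from opposite changes of 0.52 in experiment 1 and -0.56 in experiment 2. SNHG4, which also holds SNORA74A, and CCT6P1, which also holds SNORA22, were not measured with 1 symbol. Whether these genes changed is therefore not known here. LINC03006 read between 3.39 and 3.51 on the 4 arrays, near the limit on dim rows and within the SNORD115 range. EPB41L4A-AS1 had a change of 0.07 ± 0.15, and EPB41L4A itself was too dim to test. PRRC2A, TBRG4 and RPL32P3 had changes of 0.44, 0.40 and 0.40. Of the 5 tested ribosomal protein hosts, 4 were lower in both experiments, RPL27A (-0.55 ± 0.14), RPLP2 (-0.50 ± 0.15), RPS2 (-0.31) and RPL23 (-0.27), while RPL12 had changes of -0.09 and 0.16. Of the 5, RPL27A alone passed (limma's adjusted p = 0.0437), and its call ended under median centring, quantile normalization, cyclic loess and the mean of a gene's rows. Across the 42 pairs, the snoRNA and host changes had Pearson r = 0.490 and Spearman rho = 0.390, as a description. These pairs share arrays, and the 42 pairs hold 34 hosts.

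**Figure D4:**
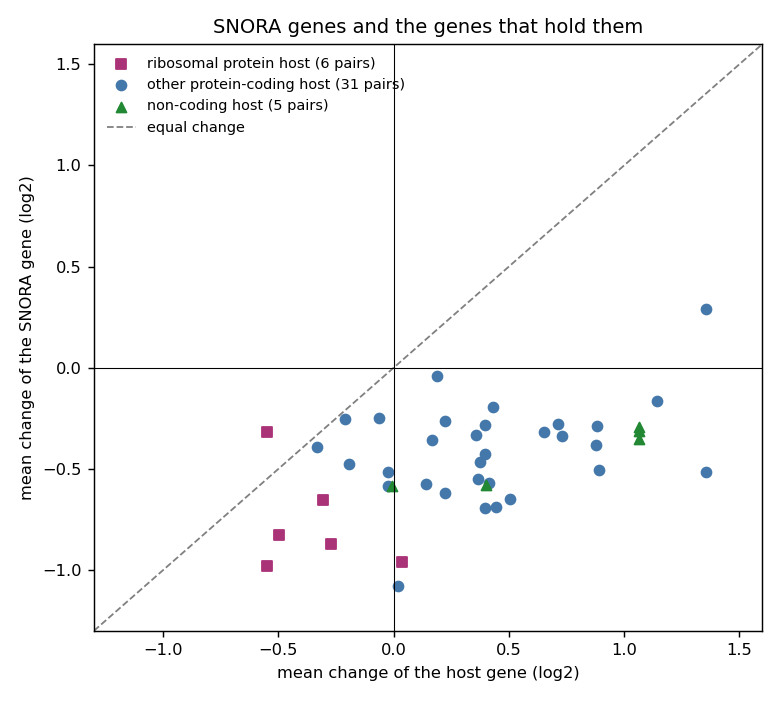
Mean change of each tested host gene (horizontal, log2) and of the SNORA gene it holds (vertical, log2) for 42 pairs, by class of host, with a dashed line of equal change. All but 1 pair lie below the dashed line, and the ribosomal protein hosts lie between -0.55 and 0.03 on the horizontal axis.

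Start sites of snoRNA hosts are shown because many such genes begin with a pyrimidine tract, the 5′ TOP element, which ties translation to growth signals. The letters CTTT, searched on the gene's strand from 15 bases before to 15 after the annotated start, were found in 7 of 7 ribosomal protein hosts in the RefSeq promoter table and in 7 of 36 other hosts. Of all 27305 promoters 12.1% hold them. The windows of 5 non-coding genes that hold SNORA genes follow, with CTTT in capitals. They belong to SNHG17 (chr20:38435314-38435343, minus strand), SNHG8 (chr4:118278747-118278776, plus), SNHG11, host of SNORA60 (chr20:38446639-38446668, plus), SNHG4 (chr5:139274086-139274115, plus) and EPB41L4A-AS1 (chr5:112160511-112160540, plus), all in GRCh38.p14. SNHG8 and SNHG4 hold the letters and SNHG17, SNHG11 and EPB41L4A-AS1 do not. A match describes the letters and shows no regulation.

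SNHG17: ttgtcgtgtggcctcagtccttcgccgtcc
SNHG8: aaggcctcggcCTTTcacattcgggaagcg
SNHG11: gcgccgctctaggctgcagccgcgccccca
SNHG4: ctcggctcccggctgccCTTTcccctccgg
EPB41L4A-AS1: tggactcatgaattctgtcgggtcccaaaa

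Of the 4 core H/ACA proteins, NOP10 fell and the rest did not pass. NOP10, the smallest core protein, read 9.14 and 10.15 after anti-miR-191 and 9.99 and 10.74 in controls, and its groups overlapped (-0.72 ± 0.15, limma's adjusted p = 0.021). NHP2 read 8.07 and 8.14 against 8.46 and 8.79, a change of -0.52 ± 0.15 that missed the threshold (adjusted p = 0.0603). DKC1 had changes of 0.46 and -0.17, and GAR1 of 0.20 and -0.22. Of 5 assembly and transport factors (NAF1, SHQ1, NOLC1, RUVBL1 and RUVBL2) 0 rose and 0 fell in limma, and at an unadjusted p under 0.05 only RUVBL1 (0.46) was counted. The other H/ACA users TERT, WRAP53 and COIL had changes between -0.17 and -0.04. Of the box C/D core, FBL had a change of -0.46 ± 0.15 and NOP58 of 0.40 ± 0.18, and neither passed.

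Enzymes that process snoRNAs and the machinery of ribosomal RNA synthesis rose in part. Of 6 processing genes 3 rose. TOE1, a 3′ exonuclease of small nuclear RNAs, read 7.78 and 8.08 against 7.06 and 6.86. DBR1, which debranches intron lariats, read 4.16 and 4.51 against 3.08 and 3.47. TENT4B, a poly(A) polymerase that acts on nuclear RNA ends, read 5.02 and 5.01 against 4.06 and 4.35. In all of them the anti-miR-191 arrays lay above the controls, with changes of 0.97 ± 0.17, 1.06 ± 0.14 and 0.81 ± 0.15, but the control levels of DBR1 and TENT4B lay within the SNORD115 range. DBR1 had a control mean of 3.27, under the limit on dim rows, and was tested only through its level after anti-miR-191. Its place in the count of risen genes is therefore set in part by the limit. EXOSC10, XRN2 and PARN did not pass. Of 6 genes of RNA polymerase I transcription 3 rose, RRN3 (1.00 ± 0.22), TAF1D (0.85 ± 0.20) and UBTF (0.57 ± 0.15). The control mean of TAF1D, 4.90, also lay within the SNORD115 range. Over the 26 genes of these lists on the array, 6 rose and 1 fell, beside 10.1% and 3.77% of all genes tested, so the share that fell (3.85%) was near that of all genes. Under quantile normalization 3 rose. Without the block 2 rose (TOE1 and DBR1), and NOP10 had an adjusted p of 0.349 in limma.

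Related classes of small RNA were measured on the same arrays. Of 14 tested SCARNA genes, the guides of Cajal bodies that modify spliceosomal RNA, 9 fell and 0 rose, beside 3.77% and 10.1% of all genes tested, with medians of -0.55 in experiment 1 and -0.84 in experiment 2. Of 82 tested box C/D snoRNA genes (SNORD), which guide ribose methylation, 15 fell and 2 rose, beside the same shares. Their medians were -0.38 in experiment 1 and 0.05 in experiment 2, and 33 of 82 were lower in both experiments (40.2%), beside 33.0% of all genes. Without the block limma called 0 SCARNA genes and 0 SNORD genes, with 6 SCARNA and 11 SNORD genes lower and 0 higher at an unadjusted p under 0.05. The difference between these classes and the SNORA genes was not tested.

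Level moved with the share of fallen genes. Among all genes with a control level of 9 or more, 24.5% fell and the median change was -0.235, and of the 14 SNORA genes there 5 fell with a median of -0.41. Between 7 and 9, 9.53% of all genes fell and their median was 0.01, while 3 of 11 SNORA genes fell with a median of -0.48. Between 5 and 7, 1.53% of all genes fell with a median of 0.07, beside 4 of 16 SNORA genes and a median of -0.52. Below 5, 0.308% of all genes fell with a median of -0.01, beside 0 of 12 SNORA genes and a median of -0.33 over the 12. At an unadjusted p under 0.05 in limma, 5 of the 12 were lower, beside 3.19% of all genes there. SNORA30 and SNORA70C, which passed the limit on dim rows only through their controls, are among the 5. In each of these ranges the SNORA median lay below that of all genes, and the part of level in the result was not tested. The control level that sets the ranges is also subtracted in the change, so level and change are not independent.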

How the data were processed

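Total RNA of 4 HepG2 cultures was biotin-labelled and hybridised to Affymetrix arrays. The values deposited by the authors are taken as log2 intensity, the usual output of RMA. The submitters' processing notes name RMA and Affymetrix Expression Console. RMA subtracts background, quantile-normalizes and summarizes each probe set. The sources used here do not say how much short RNA the extraction kept. The table holds 33297 rows, and the platform annotation gave 1 symbol for 19460, several for 1754 and none for 12083. The number of arrays limits precision.

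Fits used limma 3.58.1 (lmFit and eBayes) in R 4.3.3. Tests were two-sided and adjusted by Benjamini-Hochberg over 14147 genes. The block leaves 1 residual degree of freedom, to which moderation added 6.60. The series text says that each treatment was done in separate studies, and the titles number them, which gives the pairing. Deviations of same-numbered arrays correlated at 0.335. Where a single array was left out, a lone array was assumed to vary like the other group. The fits were tested on simulated data with noise drawn independently for each gene and array. Error that snoRNAs share on an array was not simulated. Hosts were matched by span, because the gene table gives no strand.

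Named genes are the SNORA genes called, the 10 brightest in controls, the 5 with the largest gap between experiments, families of at least 3, their hosts and fixed protein lists. Other members, among them SNORA2A, SNORA2B, SNORA24 and those in ribosomal protein genes, stand outside this rule and were named after their values were seen. The members and lists were chosen with earlier results of these data known. The snoRNA sequences themselves were not used here. The result for 1 pair of snoRNA and host is not reported here by name.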

Additional observations from a re-analysis of the deposited data

How the results depend on the processing

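Without the replicate block, limma called 452 genes higher and 101 lower, 2 SNORA genes lower, 2 genes of the fixed protein lists higher and 0 lower (2 at an unadjusted p under 0.05), and 3 hosts higher and 0 lower (2 unadjusted). In that fit, leaving out each array in turn gave 0 to 315 genes higher and 0 to 24 lower, 0 SNORA genes lower (7 to 19 unadjusted), 0 protein list genes higher (4 to 12 unadjusted) or lower (0 to 1 unadjusted), 0 to 4 hosts higher and 0 lower (0 to 4 unadjusted). Where all genes came to 0, limma had at least 1189 higher and 474 lower unadjusted. The median SNORA change then ranged from -0.57 to -0.31, the weakest when anti-miR-191 replicate 1 was left out. That setting turned the direction of SNORA21 (0.072) and SNORA7B (0.0329), and leaving out control replicate 2 turned that of SNORA7B (0.034). Among members named by the rule above but without a call, the sign also turned. It did so for SNORA67 (0.29 and 0.22) and SNORA46 (0.93 and 0.36) under both settings. Under the first it turned for SNORA14A (0.51) and under the second for SNORA29 (0.02). It turned for SNORA14A (0.05), SNORA41 (0.06), SNORA54 (0.11), SNORA5B (0.01) and SNORA71A (0.20) without control replicate 1, and for SNORA71A (0.10) without anti-miR-191 replicate 2. Members outside the naming rule, among them SNORA20, SNORA27 and SNORA33, also turned with 1 array left out and are not all listed. In all 42 to 51 of 53 SNORA genes had changes below 0 with 1 array left out. With no block, these fits compare a lone array with both experiments of the other group. Within experiments 1 and 2 the changes were -0.58 and -0.58 for SNORA7B, and -1.22 and -0.52 for SNORA21. The control of experiment 2 was higher than that of experiment 1 by 1.23 for SNORA7B and 1.19 for SNORA21. With the block, quantile normalization gave 881 genes higher and 510 lower, 3 protein list genes higher and 0 hosts lower (4 unadjusted). Quantile normalization without the block, chosen after seeing the data, gave 385 higher, 163 lower and 2 SNORA genes lower. Hosts lower also came to 0 under median centring, cyclic loess and the mean of a gene's rows (2 unadjusted in each) and with a 1.5-fold minimum, and to 2 under trended robust moderation. The mean of a gene's rows gave 2 protein list genes lower. At an adjusted p under 0.10, 847 genes, 22 SNORA genes, 3 protein list genes and 2 hosts were lower. In the fits with the block, 10 to 15 SNORA genes were lower and 0 higher at the threshold of 0.05, and their median lay between -0.50 and -0.39. Counting every gene whose span holds a snoRNA, also chosen afterwards, left 9 hosts higher and 1 lower. Precision is set by 2 arrays a group, and 13 tested SNORA genes lay in the range of the SNORD115 genes.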
